A study of Mus musculus with 6 samples.

Results

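A set of 10 topoisomerase and doxorubicin handling genes was followed in the open chromatin of bone marrow stromal cells: Top2a, Top2b, Top1, Abcb1a, Abcb1b, Abcc1, Abcg2, Cbr1, Cbr3 and Por. They are 10 of the 21631 protein-coding genes of the annotation. A peak was given to a gene when its summit lay inside the gene span or within 100 kb of it and no other protein-coding span was nearer. Under this rule the 10 genes held 43 of 78613 regions of open chromatin, and 28 of the 49098 regions that had a peak in all 6 libraries.

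The study asked what cyclic doxorubicin leaves behind in the chromatin of mesenchymal stem and progenitor cells of the marrow (MSPCs). Treated mice (DOX) received 4 intravenous injections of doxorubicin at 5 mg/kg, 1 week apart, and the control mice (PBS) received 4 injections of phosphate-buffered saline. Cells were taken 8 weeks after treatment, and each group has 3 libraries. All mice were female, carried Lepr-Cre;LSL-tdTomato+/- and were 8 to 10 weeks old at treatment, so controls bore the same Cre and reporter alleles. Cre is made where the leptin receptor gene is active, and the tdTomato that it switches on stays on in descendants, so the sort for tdTomato collects a lineage. Marrow was digested with enzymes before the sort, and open chromatin was read by ATAC-seq with an Omni protocol, in which a transposase cuts accessible DNA in washed nuclei. How many mice went into a library was not stated in the labels, and p-values thus reflect library-to-library spread alone.

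Doxorubicin slips between DNA bases and traps topoisomerase II on the strands it has cut, which leaves breaks. Efflux pumps of the ABC family carry the drug back out of the cell. Carbonyl reductases turn it into the alcohol doxorubicinol, and flavoprotein reductases pass a single electron to its quinone ring, which starts a cycle that makes reactive oxygen.

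On the autosomes and X, the authors' lists numbered 91026, 91060 and 100642 peaks for DOX libraries and 88348, 89264 and 65462 for PBS libraries. The background pileup, the mean number of fragments over a position and so a measure of depth where fragments are of like length, was 1.72, 1.67 and 2.22 in DOX and 1.27, 1.10 and 0.558 in PBS, so every DOX library was deeper than every PBS library, and depth and treatment cannot be told apart. The 65462 strongest peaks of each library were therefore compared by rank, 1 being the strongest. Peaks of equal strength were placed in order of chromosome and position, so their ranks differ. In PBS replicate 2, for example, peaks of 62.0 times the background held ranks 22042, 22134 and 22167. Among gene ends of 14 MSPC markers, 12 or 13 had a peak in each library, with Lepr, Cxcl12 and Kitl among those with one and Prrx1 without. Of 10 markers each, 2 to 4 endothelial, 1 or 2 erythroid, 2 to 4 myeloid, 2 or 3 B cell, 2 T and NK cell and 5 or 6 blood stem cell genes had one. Over all protein-coding genes the share with one was 56.8% to 57.2% per library. Cdh5, Pecam1, Gata1, Klf1, Mpo and Elane had none in any library. Chromatin of a mixture of cells does not tell fewer cells with an open site from less opening per cell.

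At none of the 10 genes did a difference between the treatment groups pass the test. DOX libraries held 34, 37 and 36 peaks at these genes and PBS libraries 36, 35 and 37, and the groups overlapped. Of the 8 genes with enough peaks to test, a mean of at least 2 per library, 0 passed the threshold on peaks per gene (limma, Benjamini-Hochberg adjusted p under 0.05). Over all 8784 genes tested, 0.535% had more peaks in DOX and 0.546% fewer. Of the 28 shared regions, 0 passed on rank, and 0% of the 49098 shared regions did in either direction. At an unadjusted p under 0.05 there were 4 of the 28, beside 13% of all. The rank entered the test as its normal score, the standard normal quantile of its place in the list, and differences are DOX minus PBS, so a positive one means a stronger place in DOX. The score was on average higher in DOX in 11 of the 28 regions and lower in 17, with a median difference of −0.04, beside 0.02 and 54.4% higher over all shared regions. In 1 region, at Abcg2, every DOX library outranked every PBS library, beside 10.9% of all shared regions. In 3, at Por, Cbr1 and Abcc1, every DOX library ranked below every PBS library, beside 7.9% of all.

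**Figure D1:**
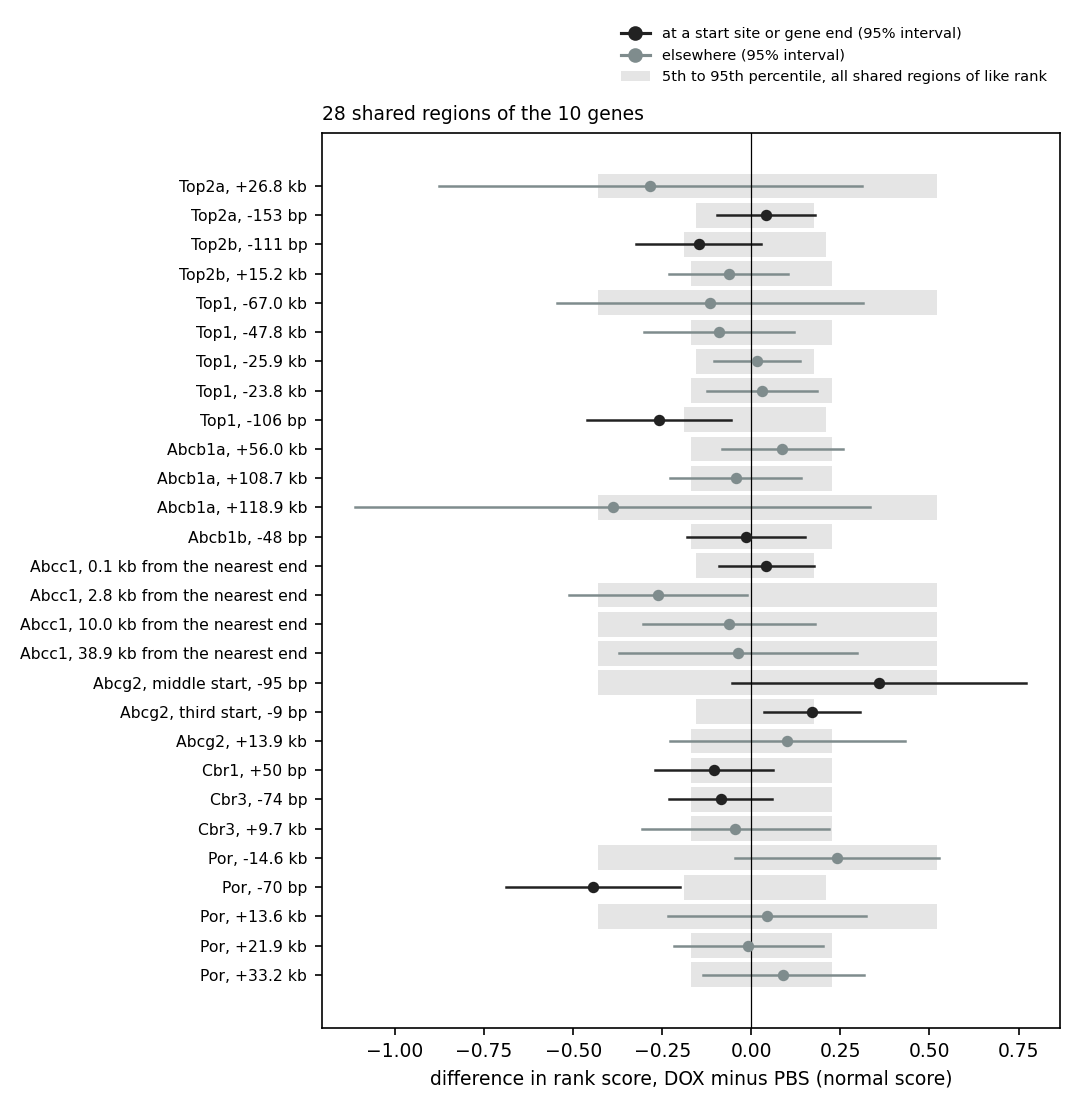
Difference in the normal score of rank (x axis, DOX minus PBS) for the 28 shared regions of the 10 genes. Each is labelled by its gene and distance from a start site, or for Abcc1 from the nearest end of its span. Points and lines are the difference and its 95% interval, black at a start or gene end. Grey bands span the 5th to 95th percentile of shared regions of like rank. The starts of Por, at −0.44, and Top1, at −0.26, lie left of their band, and none of the 28 passed the adjusted threshold.

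Where a start was annotated, the start sites of these genes ranged from near the top of the list to no peak at all. Among 7655 genes with a promoter summit in a shared region, Por was stronger than 97.7%, Top1 than 96.0%, Top2b than 87.8%, Abcg2 than 55.3%, Top2a than 44.9%, Cbr3 than 35.4% and Abcb1b than 12.6%. The promoter window ran from 250 bases before the start to 50 after it. Of the 9 genes with an entry in the table of such windows, 7 had a summit there in all 6 libraries, beside 40.5% of 17274 genes. Counted by summits no more than 1 kb from a span end instead, 7 of 10 genes had one in all 6 libraries, beside 54.2% of all genes. The 3 without were Abcb1a, Abcg2 and Por, and for Abcg2 and Por the span begins well upstream of the start that was open.

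**Figure D2:**
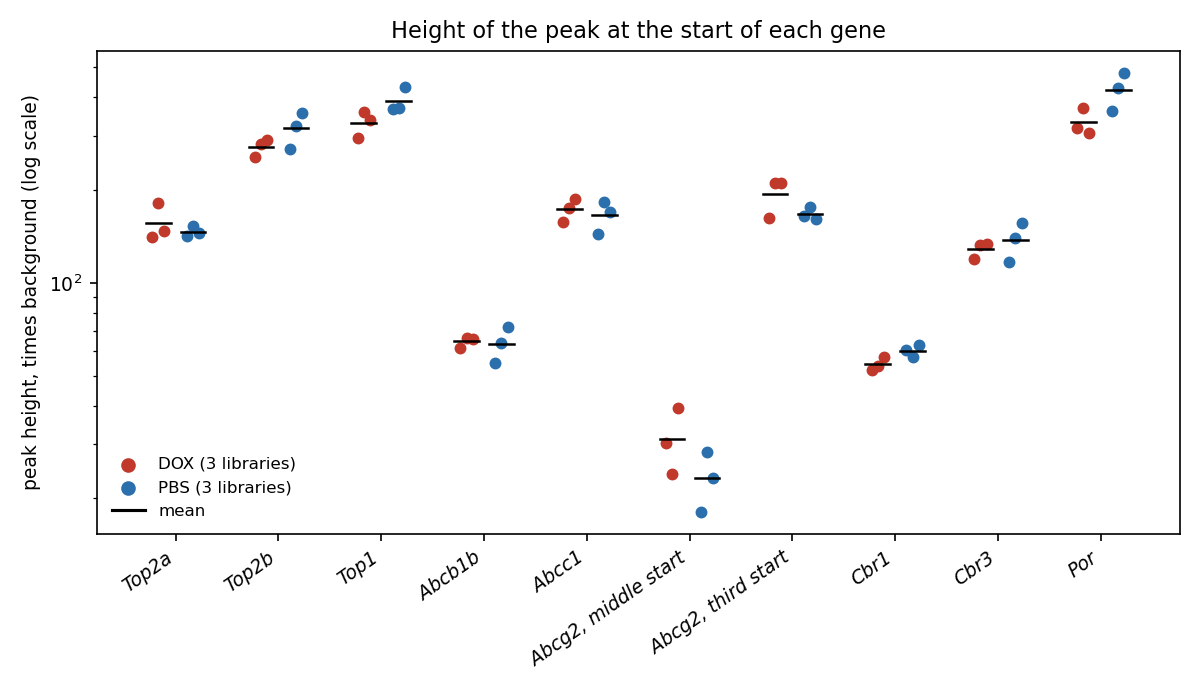
Height of the peak at the start site, or for Abcc1 at an end of its span (y axis, times the background of its own library, log scale). Each point is 1 DOX or PBS library and the bar is the group mean. Por, Top1 and Top2b stand at the high end and the middle start of Abcg2 at the low end. DOX and PBS heights overlap at each peak drawn except that at the start of Top1.

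Top2a, the topoisomerase II isoform of dividing cells and the main antitumour target of doxorubicin, had an open start of middling strength in DOX and PBS cells. Its start region, chr11:99023946-99025084 (mm10), ranked 7798, 6077 and 9010 in DOX libraries, against 8167, 8336 and 7837 in PBS libraries. The DOX values lay on both sides of the PBS values. The difference in score was 0.04 ± 0.07 (SE; 95% interval −0.09 to 0.18; limma adjusted p = 0.821). Gene ends of all 10 proliferation markers also had a peak in every library, beside 54.2% of all genes. The other Top2a region, 26826 bp into the gene, was weak, with heights of 16.9, 14.3 and 20.7 times the background in DOX and 19.7, 25.5 and 16.1 in PBS.

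Top2b, the isoform that resting cells also make and through which doxorubicin harms mouse heart muscle, had a far broader and stronger start. Its region, chr14:16363881-16366667, ranked 1286, 1542 and 1241 in DOX and 1373, 1022 and 571 in PBS, and the peak was 2645 to 2768 bp wide in DOX and 2405 to 2595 bp in PBS. Peaks were wider in DOX over the whole equal-length lists, with medians of 505, 516 and 542 bp, against 439, 476 and 328 bp in PBS. PBS replicate 3 ranked highest and PBS replicate 1 lay among the DOX libraries. The difference was −0.15 ± 0.08 (SE; limma adjusted p = 0.466), and was −0.053 without PBS replicate 3 and −0.23 without PBS replicate 1. In each of the 6 libraries the start of Top2b stood above that of Top2a, with heights of 256 to 290 in DOX and 272 to 357 in PBS for Top2b, against 141 to 181 in DOX and 142 to 153 in PBS for Top2a. A region 15154 bp inside Top2b ranked 20403, 22097 and 25046 in DOX and 21564, 22042 and 19411 in PBS, which overlapped. Top2a and Top2b each held 2 peaks in every library.

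The promoter windows of the topoisomerase II genes show how different these starts are, and are given from RefSeq (GRCm38.p6, the assembly of mm10), with matches to CCAAT and GGGCGG on either strand in capitals. CCAAT is the letter core of the CCAAT box and GGGCGG that of the GC box, and no match of one overlapped the other in any of these windows. Top2a is from the minus strand, chr11:99024140-99024439, and Top2b from the plus strand, chr14:16364956-16365255.
Top2a: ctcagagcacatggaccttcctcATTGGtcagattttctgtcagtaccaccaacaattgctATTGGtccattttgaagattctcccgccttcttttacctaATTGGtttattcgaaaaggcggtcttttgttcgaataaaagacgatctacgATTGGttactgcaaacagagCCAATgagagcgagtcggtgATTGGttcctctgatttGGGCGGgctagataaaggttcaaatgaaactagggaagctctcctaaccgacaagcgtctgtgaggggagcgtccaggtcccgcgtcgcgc
Top2b: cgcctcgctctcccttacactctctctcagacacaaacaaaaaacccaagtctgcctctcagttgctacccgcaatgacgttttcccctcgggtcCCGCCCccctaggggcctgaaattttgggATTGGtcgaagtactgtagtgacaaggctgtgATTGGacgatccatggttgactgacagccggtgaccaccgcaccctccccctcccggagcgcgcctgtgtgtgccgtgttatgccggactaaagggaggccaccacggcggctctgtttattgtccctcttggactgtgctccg
The Top2a window held 6 CCAAT matches, at −227, −189, −149, −98, −78 and −58 from the start, and 1 GGGCGG. Its summits lay between −159 and −149 in the 6 libraries, beside the match at −149. Only 266 of 21045 promoter windows (1.26%) held at least 4 CCAAT matches, and 71.8% of those had a summit in all 6 libraries, beside 35.8% of all windows. The Top2b window held 2 CCAAT matches, at −126 and −94, with summits at −111 or −116 between them. CCAAT occurred in 38.5% and GGGCGG in 46.7% of all windows. A match is a description of the letters and does not show binding.

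Top1, which nicks a single strand to relax DNA and is the target of the camptothecins, had a start near the top of the list and a set of open sites upstream. Its start region, chr2:160645435-160647153, ranked 565, 396 and 456 in DOX, against 154, 443 and 153 in PBS. Heights were 294, 358 and 339 times the background in DOX and 367, 370 and 432 in PBS. Every DOX height was below every PBS height, but on rank PBS replicate 2 lay among the DOX libraries. The difference was −0.26 ± 0.10 (SE; limma adjusted p = 0.276). In its window 64% of bases were G or C and 3 GGGCGG matches and no CCAAT were found.

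Upstream of Top1, 6 sites, 4 of them shared by all 6 libraries, lay between 23.8 and 68.0 kb before the start. The strongest, chr2:160619558-160620662 25.9 kb before the start, ranked 7302, 8322 and 7345 in DOX and 7776, 8202 and 7612 in PBS, which overlapped. Its summit lay 47 bp from the end of the long noncoding gene LOC115489488. Sites 67.0, 47.8 and 23.8 kb before the start differed by −0.12, −0.09 and 0.03 in score, with limma adjusted p from 0.737 to 0.896. In all, Top1 held 7, 8 and 8 peaks in DOX and 8, 7 and 7 in PBS (log2 difference 0.06 ± 0.08, SE; limma adjusted p = 0.915), more than 90.6% of genes. In PBS replicate 3, 2 of the 7 peaks lay in the start region.

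**Figure D3:**
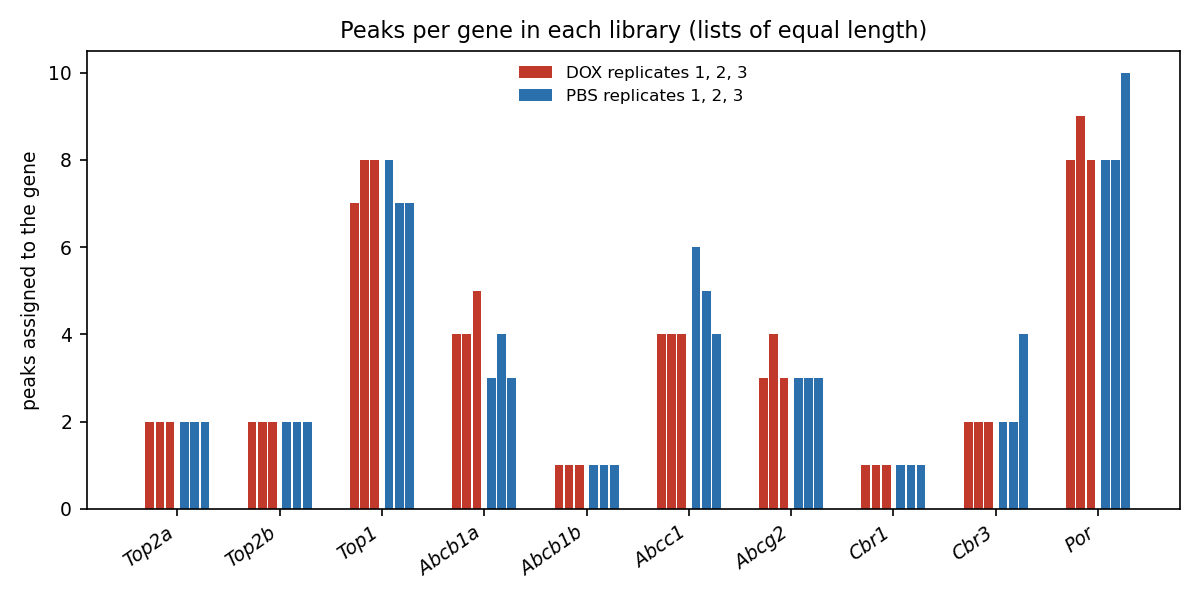
Peaks assigned to each gene (y axis, number of peaks in the equal-length list) in each DOX and PBS library; each bar is 1 library, in replicate order. Por and Top1 hold the most peaks, Abcb1b and Cbr1 hold 1 in every library, and in Abcb1a and Abcc1 the DOX and PBS counts meet at 4.

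Abcb1a and Abcb1b, neighbours 49.6 kb apart on chromosome 5, both encode mouse P-glycoprotein, the pump best known for doxorubicin resistance, and of their starts that of Abcb1b alone held a peak. No list held a peak at the start of Abcb1a. The Abcb1b start region, chr5:8797910-8798702, ranked 20786, 21165 and 21557 in DOX and 23155, 21617 and 17869 in PBS. The DOX libraries lay within the range of the PBS libraries. The difference was −0.01 ± 0.08 (SE; 95% interval −0.18 to 0.15; limma adjusted p = 0.957). It was the only peak of Abcb1b in each equal-length list. Its summit also lies 424 bp from an end of the long noncoding gene Gm5106, and accessibility there cannot be split between the genes.

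The promoter windows of the P-glycoprotein genes, both on the plus strand of chromosome 5 (chr5:8566841-8567140 for Abcb1a and chr5:8797897-8798196 for Abcb1b), differ in base composition and are given for that contrast, with CCAAT and GGGCGG on either strand in capitals.
Abcb1a: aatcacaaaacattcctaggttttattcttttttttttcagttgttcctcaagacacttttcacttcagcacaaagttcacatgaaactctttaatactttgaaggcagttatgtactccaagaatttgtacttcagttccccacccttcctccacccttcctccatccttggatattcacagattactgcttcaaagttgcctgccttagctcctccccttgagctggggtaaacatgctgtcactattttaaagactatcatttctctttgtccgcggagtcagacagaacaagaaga
Abcb1b: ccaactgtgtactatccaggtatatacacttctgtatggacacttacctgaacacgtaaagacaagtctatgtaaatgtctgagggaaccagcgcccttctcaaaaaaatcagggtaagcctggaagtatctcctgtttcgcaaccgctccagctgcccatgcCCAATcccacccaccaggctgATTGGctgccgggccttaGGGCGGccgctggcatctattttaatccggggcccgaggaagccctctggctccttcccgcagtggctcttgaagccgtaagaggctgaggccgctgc
The Abcb1a window had 40.3% G or C, 2 CpG and neither motif. The Abcb1b window had 55% G or C, 12 CpG, CCAAT at −87 and −66 and GGGCGG at −48, and its summits lay between −50 and −46 in all 6 libraries. Across the genome 13.8% of windows with under 55% G or C had a summit in all 6 libraries, against 53.2% of those with at least 55%. The Abcb1b window lies exactly on this cut. Below it, the windows of Top2a (47.7%) and the middle start of Abcg2 (48%) had a summit in all 6 libraries. Those of Cbr1 (44%) and the first annotated start of Abcg2 (50%) did not. The part of base composition in the contrast was not tested. P-glycoprotein is a known product of the endothelium of brain vessels, and of the 10 endothelial genes Erg and Kdr had a peak at an end in all 6 libraries, while Cdh5, Pecam1, Tek, Emcn, Egfl7 and Sox17 had none in any. DOX libraries had 4, 2 and 2 of them with such a peak and PBS libraries 2, 3 and 3, and their part in the Abcb1a regions was not tested.

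Within Abcb1a there were 3 shared regions, all far from its start. The strongest, chr5:8622100-8623413, lies 56.0 kb into the gene but 37 bp from an end of the protein-coding gene Rundc3b, whose promoter window it overlaps, so its assignment to Abcb1a rests on the rule. It ranked 20965, 17435 and 16186 in DOX and 21204, 22167 and 17105 in PBS (difference 0.09 ± 0.08, SE; limma adjusted p = 0.678), and without 1 library the difference was 0.041 to 0.15. A region 118.9 kb into the gene ranked 62566, 52795 and 39927 in DOX and 51515, 52203 and 34094 in PBS, near the end of the list in DOX replicate 1. Abcb1a held 4, 4 and 5 peaks in DOX and 3, 4 and 3 in PBS, a log2 difference of 0.34 ± 0.15 (SE; limma adjusted p = 0.655).

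Abcc1, the multidrug resistance-associated protein that exports drugs and their glutathione conjugates, had a peak at an end of its span. This region, chr16:14361263-14362775, ranked 6339, 6565 and 5655 in DOX and 7979, 6125 and 5992 in PBS, with heights of 157, 175 and 188 in DOX and 144, 182 and 170 in PBS. The groups overlapped (difference 0.04 ± 0.06, SE; limma adjusted p = 0.815). A weaker region 2836 bp inside that end, chr16:14364016-14364553, had heights of 29.1, 32.3 and 30.1 in DOX, against 42.5, 46.5 and 32.3 in PBS. Its ranks of 36473, 35803 and 37849 in DOX were all weaker than the 28417, 27673 and 33610 in PBS, and the difference of −0.26 ± 0.12 (SE) did not pass the adjusted threshold (limma adjusted p = 0.362). Abcc1 held 4 peaks in every DOX library and 6, 5 and 4 in PBS libraries, where PBS replicate 3 equalled DOX (log2 difference −0.27 ± 0.15, SE; limma adjusted p = 0.740). In PBS replicate 1, 2 of the 6 peaks lay in the region at the end of the span.

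Abcg2, the breast cancer resistance protein, a pump that expels dyes and drugs from stem cells, was open at 2 of its 3 annotated starts. The third start, chr6:58640035-58640884, ranked 5873, 4230 and 4191 in DOX, against 6118, 6588 and 6641 in PBS. Heights there were 163, 210 and 211 times the background in DOX and 165, 176 and 161 in PBS. On rank every DOX library stood above every PBS library, although DOX replicate 1 stood close to PBS replicate 1 and lay among the PBS libraries in height. The difference was 0.17 ± 0.06 (SE; 95% interval 0.04 to 0.30) and did not pass the threshold (limma adjusted p = 0.280).

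The middle start of Abcg2, chr6:58596414-58596648, was weak, with heights of 30.2, 23.9 and 39.1 in DOX and 18.1, 28.3 and 23.3 in PBS. DOX replicate 2 lay among the PBS libraries (rank difference 0.36 ± 0.20, SE; limma adjusted p = 0.448), and without PBS replicate 1 the difference was 0.18. A site 13.9 kb after the third start ranked 33421, 28903 and 23469 in DOX and 41338, 28662 and 23533 in PBS, which overlapped. In the complete deposited lists, a further small region at chr6:58641377-58641666 had heights of 7.56, 12.6 and 11.2 in DOX and no peak in PBS libraries. It was the only region of the 10 genes found in every DOX and no PBS list there, beside 1.9% of all regions, and the reverse held for 0.038%; those lists are longer in the deeper DOX libraries. In the equal-length lists 0 regions of the 10 genes were in 1 group only, beside 0.792% of all regions for DOX and 0.303% for PBS. Abcg2 is also made by erythroid precursors, and of the 10 erythroid genes Epor had a peak at an end in all 6 libraries, while 8, among them Gata1, Klf1, Alas2 and Slc4a1, had none in any. DOX libraries had 2, 2 and 2 of them with such a peak and PBS libraries 1, 2 and 2, and their part in the Abcg2 regions was not tested.

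The first and the third start windows of Abcg2, both on the plus strand (chr6:58584283-58584582 and chr6:58640296-58640595), are given because only the third was strongly open, with CCAAT and GGGCGG on either strand in capitals.
Abcg2, the first start: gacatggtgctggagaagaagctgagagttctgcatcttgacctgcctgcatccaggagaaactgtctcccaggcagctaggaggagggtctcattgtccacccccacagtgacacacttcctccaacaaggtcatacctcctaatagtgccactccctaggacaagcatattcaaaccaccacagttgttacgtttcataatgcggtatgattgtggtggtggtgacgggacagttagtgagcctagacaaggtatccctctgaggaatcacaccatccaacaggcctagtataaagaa
Abcg2, the third start: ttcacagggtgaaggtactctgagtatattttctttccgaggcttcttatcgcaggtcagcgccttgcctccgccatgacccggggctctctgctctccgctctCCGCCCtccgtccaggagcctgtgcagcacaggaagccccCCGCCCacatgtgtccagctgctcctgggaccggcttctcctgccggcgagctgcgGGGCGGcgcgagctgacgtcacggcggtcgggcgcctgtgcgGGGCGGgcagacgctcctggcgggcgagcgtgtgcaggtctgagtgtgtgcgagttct
The first window had 50% G or C, 3 CpG and neither motif, and no list held a summit in it. The third had 67% G or C, 28 CpG and 4 GGGCGG matches, at −146, −106, −50 and −8. Summits lay between −11 and −8 in 5 libraries and at −50 in PBS replicate 3, the shallowest.

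**Figure D4:**
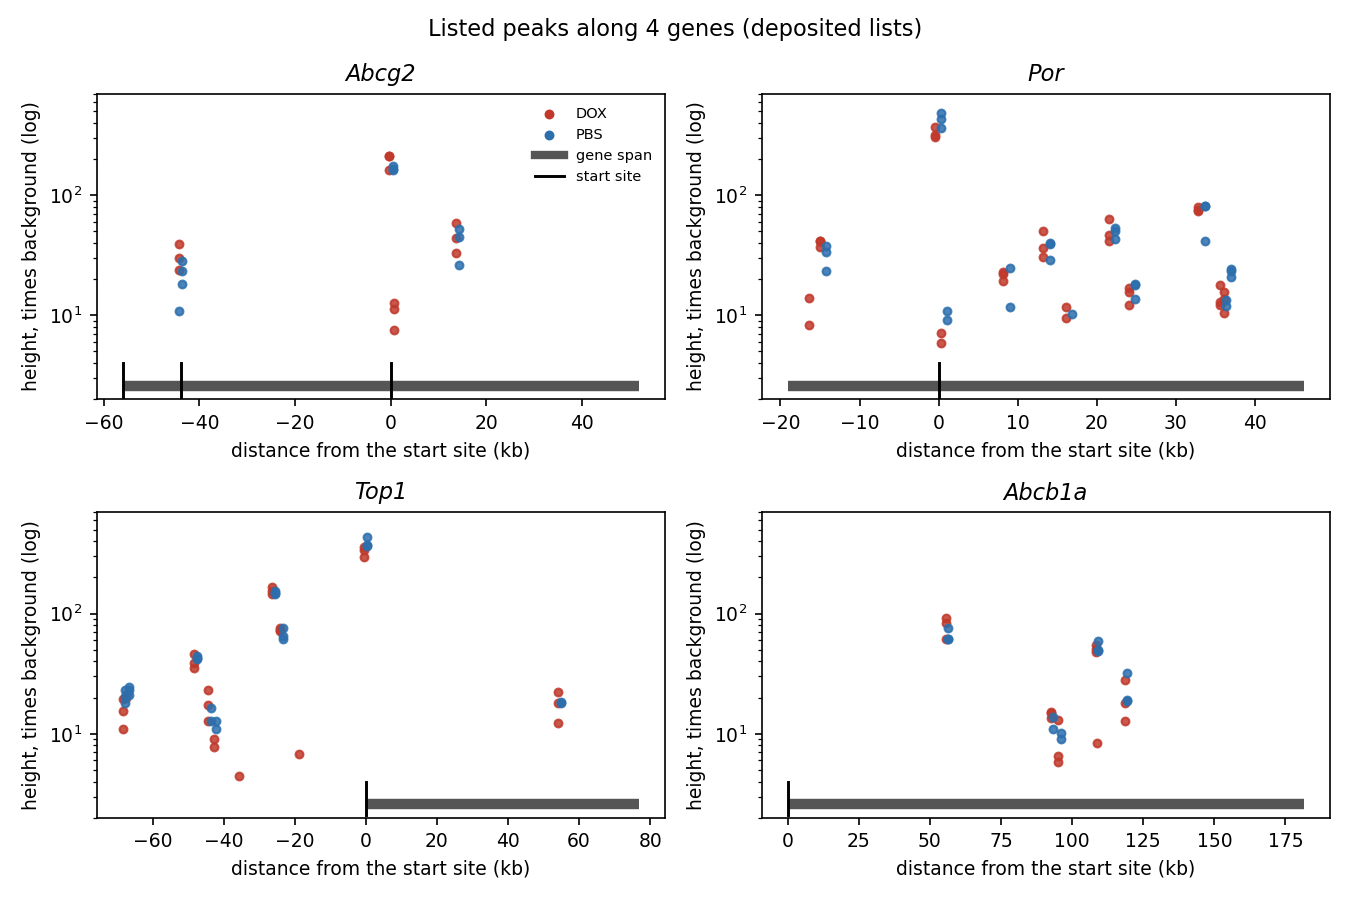
Peaks of the complete deposited lists along Abcg2, Por, Top1 and Abcb1a (x axis, distance in kb from the start site, for Abcg2 the third start; y axis, height in times the background of the library, log scale), with 1 point per peak and library and DOX drawn slightly left of PBS; the bar is the gene span and ticks are start sites. The tallest peaks stand at the starts of Por and Top1 and at the third start of Abcg2, and no peak stands at the start of Abcb1a.

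Cbr1 and Cbr3, carbonyl reductases 72.9 kb apart on chromosome 16 that make doxorubicinol, were open at their starts to different degrees. The Cbr1 region, chr16:93607632-93608513, ranked 23628, 24924 and 23832 in DOX and 21356, 23554 and 19967 in PBS. Each DOX library ranked below each PBS library, with DOX replicate 1 just below PBS replicate 2, and the difference was −0.10 ± 0.08 (SE; limma adjusted p = 0.60), or −0.069 without PBS replicate 3. In height, DOX replicate 3 at 57.6 times the background passed PBS replicate 2 at 57.5. The ranks 23628 and 23554 are close enough for the order of tied peaks to matter. This region held the only peak of Cbr1. The broader Cbr3 start, chr16:93682447-93684697, ranked 10239, 10410 and 10496 in DOX and 10878, 9620 and 7027 in PBS, which overlapped (difference −0.09 ± 0.07, SE; limma adjusted p = 0.618). Without PBS replicate 3 that difference was −0.0092, and without PBS replicate 1 it was −0.14. Cbr3 held 2 peaks in every DOX library and 2, 2 and 4 in PBS, so the groups were equal without PBS replicate 3. In that library, 2 of the 4 peaks lay in the start region.

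Por, the P450 reductase that feeds electrons to microsomal P450 enzymes and can hand one to the doxorubicin quinone, had the strongest start of the 10 genes by median rank and the widest gap between groups relative to its error. The start region, chr5:135687908-135689537, ranked 295, 303 and 918 in DOX, against 194, 127 and 63 in PBS. Heights were 319, 370 and 305 times the background in DOX and 361, 428 and 481 in PBS. On rank all DOX libraries stood below all PBS libraries, while on height DOX replicate 2 passed PBS replicate 1. The difference was −0.44 ± 0.11 (SE; 95% interval −0.69 to −0.20), with an unadjusted p of 0.00138 and a limma adjusted p of 0.164, so it was not called. With the spread of each region raised at least to the trend over all regions, the adjusted p was 0.0425 (limma). That setting also called 60 shared regions higher and 26 lower in DOX, against 0 and 0 in the main fit. With neither trend nor robust moderation the adjusted p at the start of Por was 0.397 (limma).

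The deepest library, DOX replicate 3, had the weakest Por rank and the shallowest, PBS replicate 3, the strongest; the part of depth in this difference was not tested. Of the 1466 shared regions with a median rank of at most 1500, a limit chosen after seeing the data, 8.46% had all DOX libraries below all PBS and 10.2% all above. Their median difference was 0.00 and their 5th and 95th percentiles were −0.19 and 0.21. The summit of the region also lies 24 bp from an end of the noncoding gene Gm40345, and accessibility there cannot be split between the genes. The window is on the plus strand, chr5:135688895-135689194, and is given because it carries this difference, with GGGCGG on either strand in capitals.
Por: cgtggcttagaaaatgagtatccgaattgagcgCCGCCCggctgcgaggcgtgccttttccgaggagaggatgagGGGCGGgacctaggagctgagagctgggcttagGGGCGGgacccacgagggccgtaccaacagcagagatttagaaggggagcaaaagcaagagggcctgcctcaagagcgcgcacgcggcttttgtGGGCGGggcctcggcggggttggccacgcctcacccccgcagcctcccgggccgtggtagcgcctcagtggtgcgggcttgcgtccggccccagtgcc
It had 67.3% G or C, 27 CpG and GGGCGG at −217, −175, −142 and −48, with no CCAAT. Summits lay at −70 or −71 in every library.

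Counted with its start, Por held more peaks than 92.2% of genes, with 8, 9 and 8 in DOX and 8, 8 and 10 in PBS (log2 difference −0.05 ± 0.11, SE; limma adjusted p = 1). In PBS replicate 3, 2 of the 10 peaks lay in the start region and 2 in the region 14.6 kb before the start. The site 14.6 kb before the start ranked 28446, 32686 and 30486 in DOX and 31281, 35268 and 43530 in PBS. DOX replicate 2 lay among the PBS libraries, and the difference of 0.24 ± 0.14 (SE) had the opposite sign to that at the start (limma adjusted p = 0.466). Without PBS replicate 3 it was 0.11. Regions 13.6, 21.9 and 33.2 kb into the gene differed by 0.04, −0.01 and 0.09, with limma adjusted p from 0.759 to 0.983. A region at chr5:135725419-135725879 was absent from the list of DOX replicate 1, ranked 61884 and 57325 in the other two DOX libraries and 43183, 49202 and 43531 in PBS.

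The remaining 15 regions of the 10 genes lacked a peak in at least 1 equal-length list and were all weak, at 10.8 to 24.6 times the background. Of these, 7 were in 1 library only and 10 were absent from PBS replicate 3.

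No other gene of the same pathways that was tested passed either. For the counts of gene ends below, the share over all protein-coding genes was 56.8% to 57.2% per library. Of 13 genes for other topoisomerases and the repair of trapped topoisomerase, 10 were marked by a peak at an end of the gene, in DOX and in PBS libraries, and 0 of 6 tested passed on peaks per gene in either direction. Their 20 shared regions had a median difference of −0.01, with 0 in which every DOX library stood above every PBS library and 2 below, beside 10.9% and 7.9% of all shared regions. Of 14 other efflux and uptake transporters, 8 or 9 had such a peak, and 0 of 6 tested passed. Their 33 shared regions had a median difference of 0.06, with 5 above and 1 below, beside the same 10.9% and 7.9%. Of 20 other reductases and oxidases that act on quinones and carbonyls, 14 had such a peak, and 0 of 10 tested passed. Their 55 shared regions had a median difference of 0.02, with 9 above and 5 below, again beside 10.9% and 7.9%. None of the shared regions of these lists passed the adjusted threshold.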

How the data were processed

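ATAC-seq was measured in 3 DOX and 3 PBS libraries, grouped by their titles. The submitters' processing notes name MACS2 2.2.7.1, Bowtie2 2.4.5, Trim Galore 0.6.6, FastQC 0.11.5, Picard 2.10.9, DiffBind 3.16.0, MultiQC 1.7 and the build mm10, without saying what each did. Peak caller settings, read filters and any shift for the Tn5 cut were not given in the sources used here. Per library the authors deposited 1 list of peaks, with a fold enrichment (a ratio to background), a −log10 p, a −log10 q, a score and a summit offset of another kind, its distance in bp from the start of the peak. These are the authors' values and are not scaled between libraries.

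Chromosome Y was left out (13 to 19 peaks). The constant background and the pileup of each peak were solved from fold and −log10 p under a Poisson model; 3033 to 3936 peaks per library gave it, 100% within 1%. Height is pileup over background. Lists were cut to the 65462 strongest by −log10 p, the length of the shortest, and peaks overlapping by at least 1 bp were merged into regions. Ties in −log10 p were ordered by fold, then by chromosome and position, in the ranks and at the cut. A summit inside several spans went to the gene with the nearer end. A region can hold more than 1 peak of a library, and peaks per gene counted each of them. Gene spans and promoter sequences are RefSeq's for GRCm38.p6; 9 of 10 genes matched the promoter table.

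Peaks per gene, as log2(peaks + 0.5), and normal scores of rank were fitted with limma 3.58.1 (R 4.3.3; trend, robust) over all genes or regions, with Benjamini-Hochberg adjustment and a threshold of 0.05; Python 3.11.15 did the rest. The scripts were tested on simulated data. The 10 genes were all named; within each, the regions at a gene end, the strongest, any in 1 group only and those with the largest differences were named. Genes and lists were chosen with earlier results of these data known. Alternatives left out each library, blocked on replicate number, raised the spread to its trend or dropped the trend and robust moderation. Others took the strongest 32731 peaks, peaks of at least 20 times the background or the complete lists, and changed the scale, pseudocount, filter and overlap. For lists of unequal length, peaks per gene were scaled to the list total. The alternative of 50% overlap was judged against the median start and end of a region's peaks.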

Additional observations from a re-analysis of the deposited data

How the results depend on the processing

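Depth differed between the groups, no read counts were used, and the SE of the 28 regions, 0.06 to 0.34 in score, limits what can be detected. Of the 10 genes and their regions, none passed the threshold in any alternative run other than the start of Por, which did when the spread was raised to its trend (adjusted p = 0.0425, 1 region); over 13 alternatives its difference ran from −0.53 to −0.31, with limma adjusted p from 0.0425 to 0.481. For the third start of Abcg2 the difference ran from 0.14 to 0.23 and adjusted p from 0.224 to 0.611, for the start of Top1 from −0.38 to −0.20 and from 0.181 to 0.537, and for the inner Abcc1 region from −0.62 to −0.22 and from 0.273 to 0.723. The cause of the shifts was not tested.

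Deviations of same-numbered libraries from their group mean correlated at 0.105, −0.094 and 0.038, against −0.165 to 0.134 for libraries of unlike number. Such deviations cancel within a group, so these values depend on one another and cannot exclude pairing. With a replicate block, genes with more and fewer peaks in DOX numbered 21 and 17, against 47 and 48 without it, and shared regions higher and lower in DOX 26 and 3, against 0 and 0; 0 member genes or regions were among them. Gene counts, more and fewer, were 20 and 17 with the spread raised, 0 and 0 at 20 times the background, 3 and 0 in the complete lists, 75 and 24 with regions counted, and 112 and 93 with no filter. Leaving out 1 library gave 95 to 145 more and 70 to 137 fewer. Shared regions called, higher and lower, were 60 and 26 with the spread raised and 199 and 42 on log2 height, and 2 higher in the strongest 32731 and at 20 times the background; without 1 library, 0 to 64 higher and 0 to 7 lower.

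Regions in DOX or PBS only, 623 and 238, became 2151 and 43 in the complete lists, 293 for DOX in the strongest 32731 and 361 at 20 times the background; without 1 library they were 955 to 1452 for DOX and 380 to 681 for PBS. Among the 10 genes these were 1 for DOX in the complete lists (Abcg2), 1 for PBS at 20 times the background (Por), and 0 to 2 for DOX without 1 library (1 at Top1 without PBS replicate 1, and 2 at Abcb1a and Por without PBS replicate 2). Without 1 library, member regions with every DOX library above PBS numbered 1 to 4 and those below 4 to 5. These counts, added after seeing the data, stand beside 15.03% to 18.3% and 11.5% to 14.8% of all shared regions. A region whose groups are apart in all 6 libraries stays so when any 1 is left out, so the member counts cannot fall. They are thus no check on the Abcg2, Por, Cbr1 and Abcc1 regions.

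Differences that changed sign, none of them past the threshold, were for peaks per gene Top1 (−0.066 at 20 times the background and −0.079 in the complete lists), Abcb1a (−0.013 in the complete lists), Abcc1 (0.13 in the complete lists) and Por (0.053 with regions counted, 0.097 in the strongest 32731, and −0.10 to 0.053 without 1 library, the highest without PBS replicate 3). For rank, leaving out 1 library gave −0.020 to 0.096 at the start of Top2a (lowest without DOX replicate 2), −0.011 to 0.072 at the end of the Abcc1 span (lowest without PBS replicate 1), −0.022 to 0.080 at the Top1 site 23.8 kb upstream (lowest without PBS replicate 2) and −0.063 to 0.051 at the start of Abcb1b (highest without PBS replicate 3), which was 0.030 on log2 height.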
